A study of Mus musculus with 7 samples.

Results

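The genes of DNA replication were measured in CD11c-positive spleen cells as a set of 41 listed genes, of which 39 had a probe set of their own among the 12393 genes on the array. The list covers the loading of the replicative helicase at origins, the polymerases that copy the DNA, and the enzymes that supply nucleotides. Each gene was read from 1 probe set, the one with the highest mean over all 7 arrays among those naming that gene alone, so the choice did not use the comparison. Gins2 and Chaf1a had no such probe set and were not analysed here. The tissue was spleen of mice on day 7 after an allogeneic hematopoietic stem cell transplant, a graft from a genetically different donor. CD11c is the integrin by which dendritic cells, antigen-presenting cells, are commonly isolated, and here the cells were enriched by magnetic sorting, which can retain other cell types. A total of 3 arrays came from Atg16L1 hypomorphic mice and 4 from WT mice, all on the C57BL/6J background, aged 9 weeks by the sample protocol and 8 weeks by the series design. Atg16l1 encodes a protein that helps to attach LC3 to forming autophagosomes, and a hypomorphic allele retains some of that activity. The sources used here do not state whether recipient, donor or both carried the allele, or whether each array was a separate animal. All p-values below therefore cover the spread among these 7 arrays, which may be technical.

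Before a cell divides, the origin recognition complex (ORC) marks the places where copying can begin, and Cdc6 and Cdt1 load the ring-shaped Mcm helicase onto them. Cyclin E with its kinase, and factors such as Mcm10 and the GINS complex, then turn the loaded rings into active helicases. Polymerase alpha lays down primers, polymerases delta and epsilon extend them on the sliding clamp PCNA, and ribonucleotide reductase with the thymidylate enzymes keeps up the supply of deoxynucleotides. Most of these genes are transcribed in late G1 and S phase under E2F transcription factors, so their transcripts mark cells that are preparing to divide or dividing. Most mature dendritic cells of the spleen divide little, and dividing cells there after a transplant include blood-forming cells of the graft and activated lymphocytes.

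Across the series, the deposited log2 values had array medians from 5.46 to 5.53, and each array had a mean correlation of 0.990 to 0.993 with the others. Atg16l1 itself read 6.86, 6.76 and 6.94 in the hypomorph, against 7.42, 7.33, 7.26 and 7.20 in wild type. The groups did not overlap (log2 change -0.45, 95% interval -0.63 to -0.26, adjusted p = 0.462 in the limma fit, exact two-sided permutation p = 0.0286, the smallest that 7 arrays can give). Whether its probe set overlaps the mutated region is unknown here, so this is a limited check of the labels. The dendritic cell marker Itgax, which encodes CD11c, read 7.98, 8.48 and 8.40 in the hypomorph, against 8.32, 7.98, 8.33 and 8.33 in wild type, above the array medians throughout. The class II genes H2-Aa, H2-Ab1, H2-Eb1 and Cd74 were above them too, while Ccr7 and Xcr1, markers of migrating and cross-presenting dendritic cells, read below the median of every array.

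All 39 measured replication genes had a lower mean in the hypomorph than in wild type, with a median log2 change of -0.37 and single changes from -0.73 (Pola1) to -0.11 (Rfc3). None of them passed the test. A lower mean was found for 50.8% of all 12393 genes, whose median change was -0.0024. Adjusted over all 22625 probe sets, the p-values of the 39 genes ran from 0.644 to 0.804 in limma, and 0 of 22625 probe sets (0.0%) passed an adjusted p of 0.05. Without adjustment, 984 probe sets were higher and 755 lower at a p under 0.05. Of the replication genes, 15 of 39 (38.5%) were lower at an unadjusted p under 0.05 and 0 higher, against 3.59% lower and 3.57% higher over all genes. The 39 genes were read on the same 7 arrays and, as background, are expressed in the same phases of the cell cycle, so they are not independent measurements. On bulk arrays, fewer cells in S phase and less RNA of each gene per cell cannot be told apart.

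**Figure D1:**
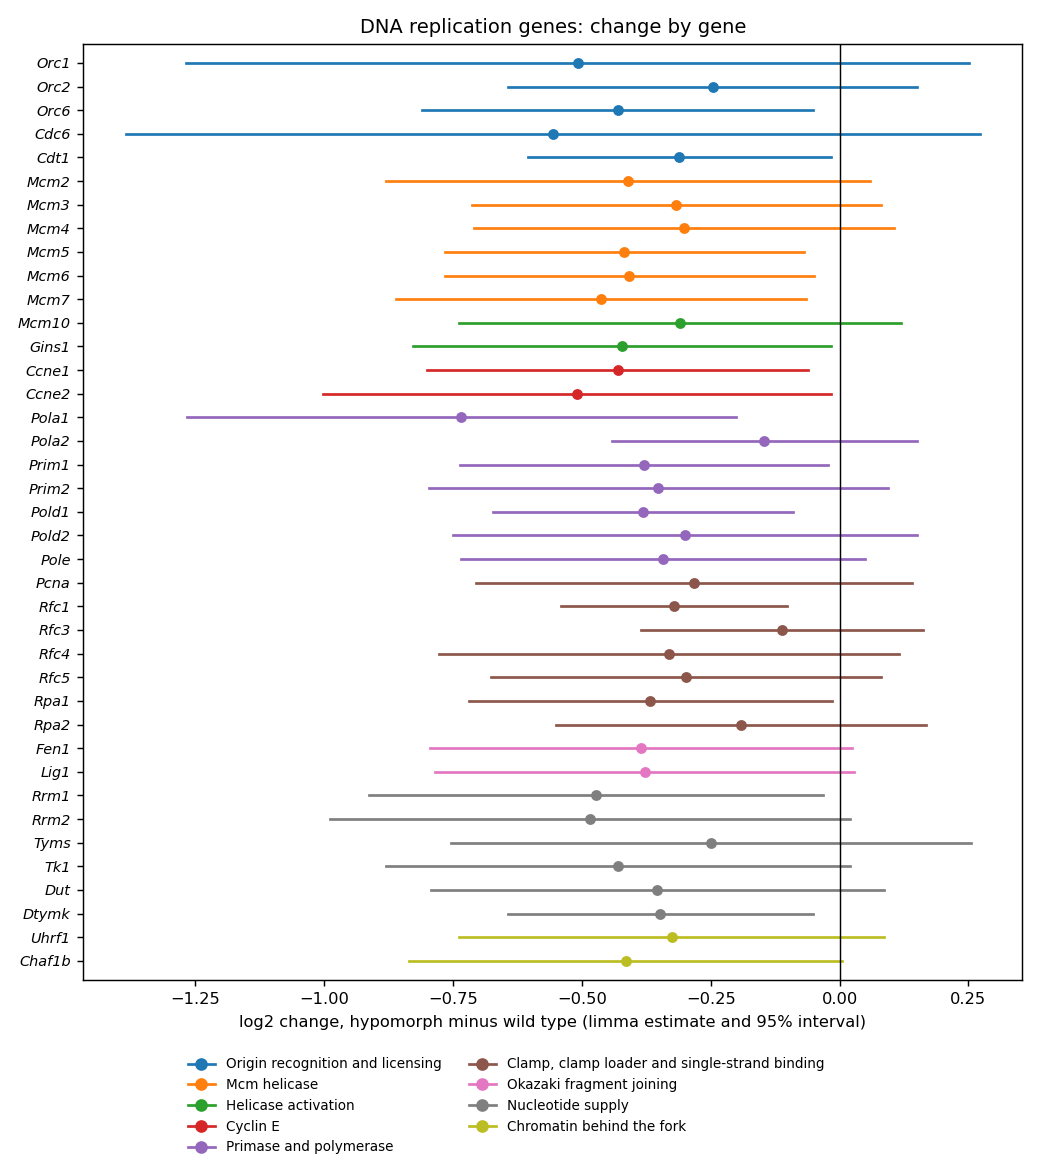
Log2 change of each of the 39 measured replication genes, hypomorph minus wild type (point, limma estimate; line, 95% interval; colour, role in replication; 3 hypomorph and 4 wild-type arrays). All points lie left of 0, from -0.73 for Pola1 to -0.11 for Rfc3, and the intervals of 15 genes lie wholly below 0.

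The 3 hypomorph arrays did not share the difference equally. Relative to the wild-type mean of each gene, the median of the 39 genes was -0.39 on hypomorph replicate 1, -0.02 on replicate 2 and -0.70 on replicate 3, against -0.03, 0.22, -0.13 and -0.06 on the wild-type arrays. Hypomorph replicate 3 therefore stood farthest down, and replicate 2 lay among the wild-type arrays. Replicate 3 read below all 4 wild-type arrays for 39 of 39 genes, against 24.4% of all genes. Replicate 1 did so for 35 of 39, against 24.2% of all genes. Replicate 2 did so for only 3 of 39 (Orc2, Rfc1 and Rfc3, named after their values were seen), against 20.2% of all genes, and it lay within the wild-type range for 33, against 64.2% of all genes. It read above all wild-type arrays for Cdc6, Pola2 and Tyms, 3 of 39, against 15.5% of all genes. Replicate 3 was the lowest of all 7 arrays for 37 genes, against 18.5% of all genes, and replicate 1 for the other 2 (Ccne2 and Rrm2), against 14.4%. Rfc1 alone had all hypomorph arrays below all wild-type arrays, 1 gene of 39, where 2.72% of all genes did.

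The direction of the median did not depend on a single array, but its size and the count of genes did. Without hypomorph replicate 2 the median log2 change was -0.55 and 35 genes were lower at an unadjusted p under 0.05. Without hypomorph replicate 3 the median was -0.19 and 1 gene was lower at that p, and without hypomorph replicate 1 there were 2 such genes with a median of -0.36. Leaving out wild-type replicates 1, 2 or 4 gave 5, 3 and 8 genes. The count without each array is therefore between 1 and 35, and the 15 genes of the full comparison are no fixed set. The share of all genes at that p (3.59% lower) was taken for the full comparison only. The counts with an array left out therefore have no background of their own.

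**Figure D2:**
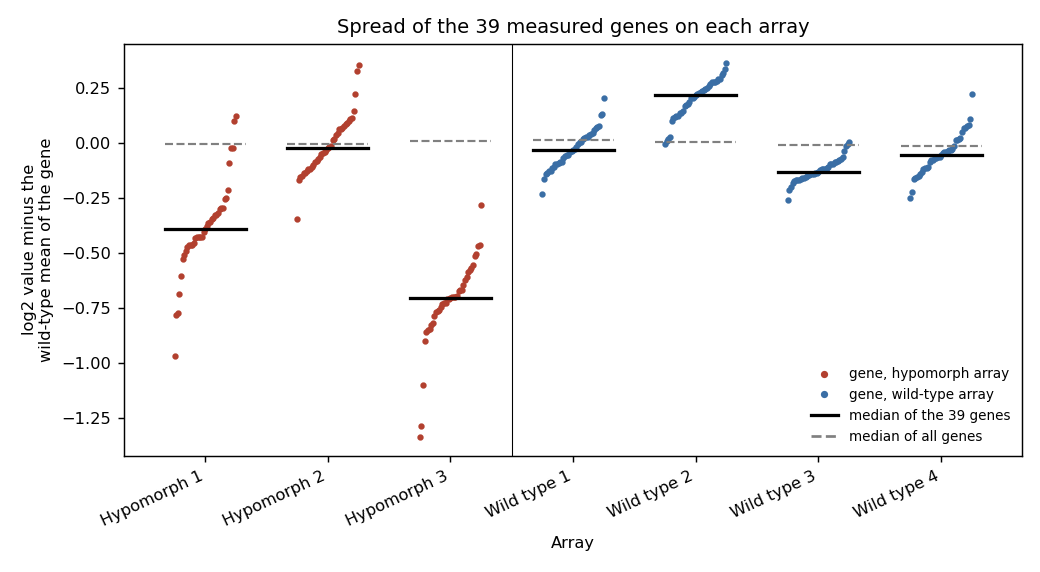
Log2 value of each of the 39 genes minus its own wild-type mean, by array (points in order of size; black line, median of the 39 genes; dashed grey line, median of all 12393 genes). The genes of hypomorph replicate 3 lie between -1.33 and -0.28, all below their wild-type means, and those of replicate 2 lie around 0.

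The spread among hypomorph arrays exceeded that among wild-type arrays for each of the 39 genes, with a median SD of 0.359 in the hypomorph and 0.170 in wild type. Over all genes 52.1% had the larger SD in the hypomorph, with medians of 0.125 in the hypomorph and 0.121 in wild type. Of the 39 genes, 33 had the same order of hypomorph arrays, with replicate 3 lowest and replicate 2 highest, as 15.6% of all genes did. Replicate 2 was the highest hypomorph array for 35 genes, against 28.7% of all genes. In wild type, replicate 2 was the highest array for 34 of 39 genes, against 24.5% of all genes. The order of the other wild-type arrays differed between genes.

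**Figure D3:**
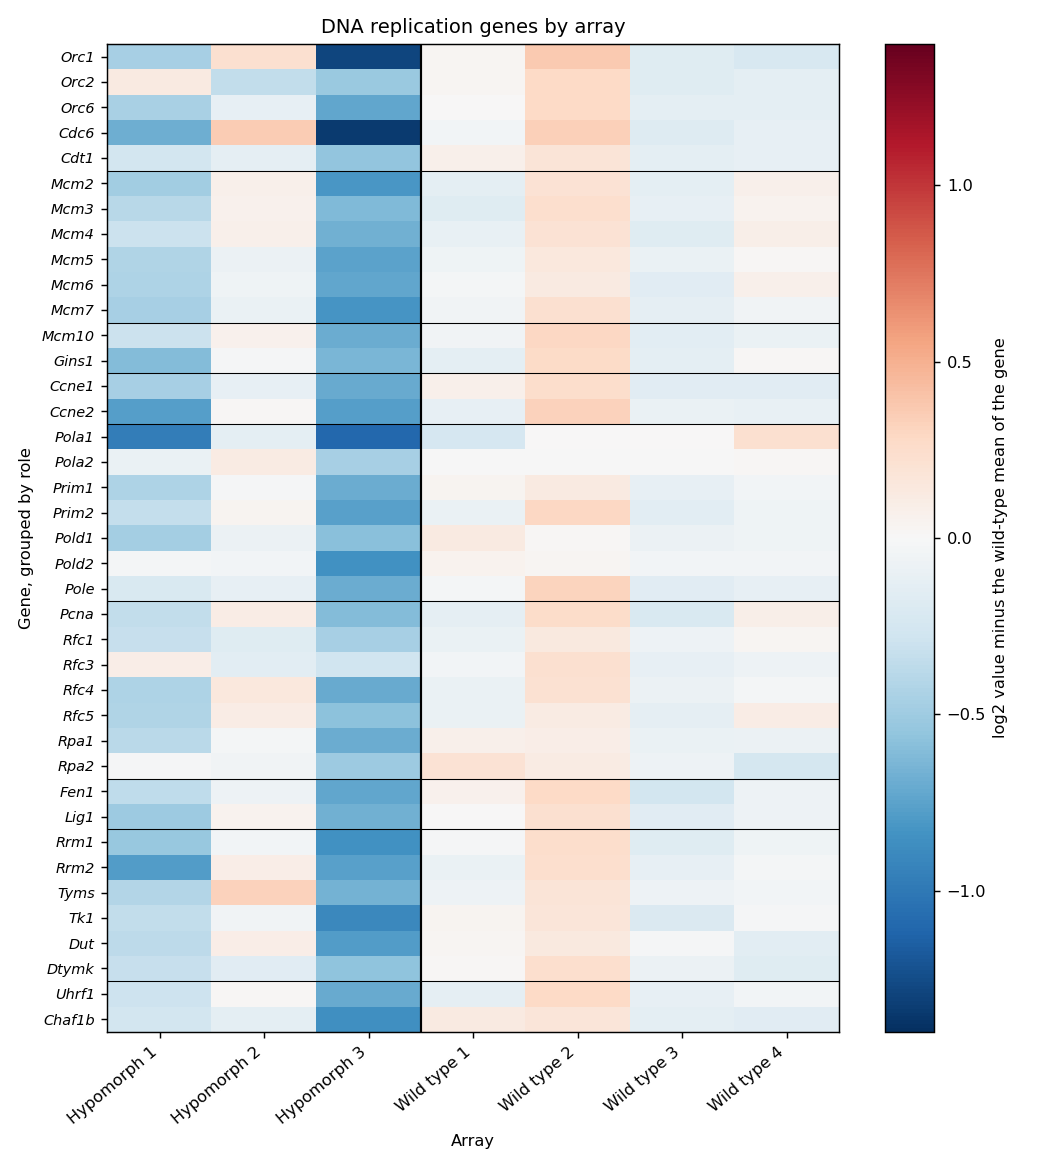
Log2 value minus the wild-type mean of the gene for the 39 genes (rows, grouped by role) on the 7 arrays (columns, hypomorph left of the line). Hypomorph replicate 3 is the lowest column for 37 of 39 genes, hypomorph replicate 2 resembles the wild-type columns, and wild-type replicate 2 is the highest of its group for 34.

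Sequences upstream of the replication genes are shown because E2F factors are known to bind such promoters. The words searched for were chosen with the results known, and a link between E2F factors and the array values was not tested. RefSeq windows of 300 bases (250 before and 50 after each start, GRCm38.p6) were found for 34 of the 39 genes, 6 of them with several windows, and not for Ccne2, Gins1, Mcm4, Pole and Prim2. The windows below belong to the 4 genes with the smallest unadjusted p, written 5′ to 3′ along the gene. Capitals mark any of 4 words of the E2F site on either strand: TTCCCGC is the first, TTCGCGC the second, TTGCCGC the third and TTGGCGC the last. The Rfc1 window lies at chr5:65335590-65335889 (minus strand), that of Pola1 at chrX:93632106-93632405 (minus strand), that of Pold1 at chr7:44548766-44549065 (minus strand) and that of Mcm5 at chr8:75109259-75109558 (plus strand).
Rfc1: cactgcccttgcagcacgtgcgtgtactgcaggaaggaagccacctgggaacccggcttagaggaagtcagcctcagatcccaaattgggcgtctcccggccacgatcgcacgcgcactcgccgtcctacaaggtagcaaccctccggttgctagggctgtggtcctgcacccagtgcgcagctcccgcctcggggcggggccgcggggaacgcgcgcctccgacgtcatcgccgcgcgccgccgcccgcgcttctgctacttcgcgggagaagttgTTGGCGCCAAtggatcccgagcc
Pola1: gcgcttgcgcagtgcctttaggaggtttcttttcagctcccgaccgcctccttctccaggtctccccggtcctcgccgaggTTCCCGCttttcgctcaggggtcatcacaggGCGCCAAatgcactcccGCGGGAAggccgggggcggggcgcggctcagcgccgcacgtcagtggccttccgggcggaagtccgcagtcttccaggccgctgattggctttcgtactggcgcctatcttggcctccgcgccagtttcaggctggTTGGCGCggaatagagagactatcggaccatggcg
Pold1: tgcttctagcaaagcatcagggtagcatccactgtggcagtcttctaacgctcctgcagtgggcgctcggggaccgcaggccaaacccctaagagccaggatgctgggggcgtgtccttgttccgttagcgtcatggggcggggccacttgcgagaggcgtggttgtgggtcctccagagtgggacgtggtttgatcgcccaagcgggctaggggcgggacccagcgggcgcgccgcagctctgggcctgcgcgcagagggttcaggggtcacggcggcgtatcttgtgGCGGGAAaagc
Mcm5: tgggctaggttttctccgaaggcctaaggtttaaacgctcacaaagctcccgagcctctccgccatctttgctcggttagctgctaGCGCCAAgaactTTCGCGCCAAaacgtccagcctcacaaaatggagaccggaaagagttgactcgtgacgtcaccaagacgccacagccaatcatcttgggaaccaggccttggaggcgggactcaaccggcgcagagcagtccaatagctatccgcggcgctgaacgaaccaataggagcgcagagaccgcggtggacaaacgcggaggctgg

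The Pola1 window held 4 of these words, that of Mcm5 3, that of Rfc1 2 overlapping ones just after the start, and that of Pold1 1. In the whole group, 21 of 34 genes (61.8%) had at least 1 of the 7-letter words, against 10.9% of all 27025 genes with a window and 17.2% of the 9887 that are on the array. The stricter 8-letter words TTTCCCGC, TTTCGCGC, TTTGCCGC and TTTGGCGC, which contain the 7-letter ones, were present in 12 of 34 (35.3%), against 2.6% of all genes and 4.07% of those on the array. Mcm6 held 3 of the 8-letter words, and Mcm3, Mcm5, Mcm7 and Rfc3 held 2 each. CCAAT, the word bound by NF-Y, which overlapped an E2F word in the Rfc1 window, was found in 21 of 34 (61.8%), against 41.1% and 42.3%. TTTGAA, the core of the element of many mitotic promoters, was found in 3 of 34 (8.82%), against 20.2% and 15.4%. The windows of the replication genes had a median GC content of 59.8%, close to the 59.3% of genes on the array and above the 52.8% of all genes. Genes with an 8-letter word had a median log2 change of -0.39 and those without one -0.35, and this difference was not tested.

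Among the 5 genes of origin recognition and licensing, the changes ran from -0.56 for Cdc6 to -0.25 for Orc2, with 2 genes at an unadjusted p under 0.05 (Orc6 and Cdt1). Orc6, a subunit of the origin recognition complex, read 7.53, 7.87 and 7.25 in the hypomorph, against 7.98, 8.26, 7.84 and 7.84 in wild type (log2 change -0.43, 95% interval -0.81 to -0.05, adjusted p = 0.644). Hypomorph replicates 1 and 3 lay below all wild-type arrays and replicate 2 between them. Cdt1, which brings the helicase to the origin, read 10.02, 10.14 and 9.71 in the hypomorph, against 10.34, 10.45, 10.13 and 10.15 in wild type (log2 change -0.31, 95% interval -0.60 to -0.02, adjusted p = 0.644). Cdc6, the ATPase that works with it, read 6.97, 8.01 and 6.32 in the hypomorph, against 7.62, 7.99, 7.47 and 7.54 in wild type (log2 change -0.56, 95% interval -1.38 to 0.27, adjusted p = 0.694). It had the widest spread of the 39 genes in the hypomorph, with replicate 3 at 2.52-fold below and replicate 2 at 1.28-fold above the wild-type mean. Orc1, the largest ORC subunit, had a change of -0.51, with 5.57, 6.25 and 4.74 in the hypomorph, against 6.06, 6.39, 5.86 and 5.81 in wild type, and replicate 3 was 2.43-fold below the wild-type mean. Orc2, another ORC subunit, did not share the common order, since its highest hypomorph array was replicate 1 (7.51) and replicate 2 (7.04) lay below all wild-type arrays.

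The 6 subunits of the Mcm helicase, the ring that unwinds DNA at the fork, had changes between -0.46 (Mcm7) and -0.30 (Mcm4), the narrowest range of any role with more than 2 genes. Mcm5 read 7.92, 8.26 and 7.60 in the hypomorph, against 8.28, 8.48, 8.25 and 8.35 in wild type (log2 change -0.42, 95% interval -0.77 to -0.07, adjusted p = 0.644). Mcm7 read 10.77, 11.13 and 10.40 in the hypomorph, against 11.17, 11.46, 11.10 and 11.19 in wild type (log2 change -0.46, 95% interval -0.86 to -0.07, adjusted p = 0.644). Mcm6 read 9.90, 10.27 and 9.60 in the hypomorph, against 10.30, 10.45, 10.17 and 10.40 in wild type (log2 change -0.41, 95% interval -0.77 to -0.05, adjusted p = 0.644). In each of these subunits, as in Mcm2 (-0.41), Mcm3 (-0.32) and Mcm4, hypomorph replicates 1 and 3 were below every wild-type array and replicate 2 was within the wild-type range. The subunits form 1 hexamer, and their medians on the hypomorph arrays were -0.43, -0.0007 and -0.74, against -0.08, 0.20, -0.13 and 0.06 on the wild-type arrays.

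Of the factors that activate the helicase, Gins1, a subunit of GINS, read 7.32, 7.91 and 7.28 in the hypomorph, against 7.78, 8.19, 7.78 and 7.94 in wild type (log2 change -0.42, 95% interval -0.83 to -0.02, adjusted p = 0.644). Mcm10, which binds the helicase at the start of unwinding, read 6.32, 6.68 and 5.92 in the hypomorph, against 6.56, 6.90, 6.47 and 6.53 in wild type (log2 change -0.31, 95% interval -0.74 to 0.12, adjusted p = 0.677). Both showed replicate 2 within the wild-type range. The E cyclins, which drive the step from G1 to S phase with Cdk2, had changes of similar size. Ccne1 read 6.57, 6.91 and 6.32 in the hypomorph, against 7.10, 7.27, 6.88 and 6.87 in wild type (log2 change -0.43, 95% interval -0.80 to -0.06, adjusted p = 0.644). Ccne2 read 6.99, 7.78 and 6.99 in the hypomorph, against 7.65, 8.08, 7.67 and 7.65 in wild type (log2 change -0.51, SE 0.21, adjusted p = 0.644), with replicates 1 and 3 at nearly one level.

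The 7 genes of primase and the polymerases included the largest and one of the smallest changes, -0.73 for Pola1 and -0.15 for Pola2, which encode the catalytic and the second subunit of polymerase alpha. Pola1 read 6.47, 7.30 and 6.34 in the hypomorph, against 7.20, 7.45, 7.44 and 7.66 in wild type, a mean 1.66-fold lower (log2 change -0.73, 95% interval -1.27 to -0.20, adjusted p = 0.644). Replicate 2 lay just above the lowest wild-type array. Pola2 read 7.23, 7.43 and 6.85 in the hypomorph, against one identical value, 7.31, on wild-type replicates 1, 2 and 3 and 7.33 on replicate 4. Pold1, the catalytic subunit of polymerase delta, read 7.51, 7.90 and 7.40 in the hypomorph, against 8.12, 8.01, 7.90 and 7.93 in wild type (log2 change -0.38, 95% interval -0.67 to -0.09, adjusted p = 0.644), and hypomorph replicate 2 and wild-type replicate 3 had the same value. Prim1, the catalytic primase subunit, read 8.46, 8.87 and 8.19 in the hypomorph, against 8.93, 9.01, 8.77 and 8.85 in wild type (log2 change -0.38, 95% interval -0.74 to -0.02, adjusted p = 0.644). Its partner Prim2 had a change of -0.35, Pole, the catalytic subunit of polymerase epsilon, -0.34, and Pold2, a small subunit of polymerase delta, -0.30. For Pold2 hypomorph replicate 3 stood alone, with 7.41, 7.40 and 6.59 in the hypomorph, against 7.48, 7.46, 7.40 and 7.40 in wild type.

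Of the sliding clamp, its loader and the single-strand binding proteins, 2 of 7 genes were lower at an unadjusted p under 0.05. Rfc1, the large subunit of the clamp loader RFC, read 7.83, 7.99 and 7.69 in the hypomorph, against 8.06, 8.29, 8.09 and 8.18 in wild type (log2 change -0.32, 95% interval -0.54 to -0.10, adjusted p = 0.644). It had the smallest unadjusted p of the 39 genes, and the groups did not overlap. The other probe sets of Rfc1 had changes of -0.06 and 0.05, so the gene's 3 probe sets differed in size and sign. Rpa1, the large subunit of replication protein A, which coats single-stranded DNA, read 9.89, 10.25 and 9.57 in the hypomorph, against 10.35, 10.37, 10.17 and 10.19 in wild type (log2 change -0.37, 95% interval -0.72 to -0.02, adjusted p = 0.644). Rfc5, another loader subunit, read 7.65, 8.18 and 7.49 in the hypomorph, against 7.97, 8.18, 7.95 and 8.18 in wild type (log2 change -0.30, 95% interval -0.68 to 0.08, adjusted p = 0.662). Pcna, the clamp itself, had a change of -0.28, Rfc4 of -0.33, Rpa2 of -0.19 and Rfc3 of -0.11, the smallest of all. For Rfc3 and Rpa2, hypomorph replicate 1 read above replicate 2, as for Orc2 and Pold2.

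Both genes of Okazaki fragment joining had changes of nearly one size. Fen1, the nuclease that trims the flaps, read 9.18, 9.47 and 8.82 in the hypomorph, against 9.60, 9.82, 9.28 and 9.47 in wild type (log2 change -0.39, 95% interval -0.80 to 0.02, adjusted p = 0.644). Lig1, the ligase that seals the nicks, read 8.50, 9.05 and 8.34 in the hypomorph, against 9.02, 9.23, 8.85 and 8.94 in wild type (log2 change -0.38, 95% interval -0.78 to 0.03, adjusted p = 0.644). Neither passed an unadjusted p of 0.05, and hypomorph replicate 2 lay within the wild-type range in both.

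The 6 genes of nucleotide supply had changes from -0.48 (Rrm2) to -0.25 (Tyms). Dtymk, thymidylate kinase, read 8.64, 8.81 and 8.40 in the hypomorph, against 8.98, 9.19, 8.88 and 8.80 in wild type (log2 change -0.35, 95% interval -0.64 to -0.05, adjusted p = 0.644). All 3 of its probe sets were lower, at -0.35, -0.33 and -0.33, each at an unadjusted p under 0.05. Rrm1, the large subunit of ribonucleotide reductase, read 9.31, 9.80 and 8.99 in the hypomorph, against 9.82, 10.09, 9.67 and 9.78 in wild type (log2 change -0.47, 95% interval -0.91 to -0.03, adjusted p = 0.644). Its small subunit Rrm2 read 9.79, 10.66 and 9.81 in the hypomorph, against 10.48, 10.81, 10.45 and 10.54 in wild type (log2 change -0.48, 95% interval -0.99 to 0.02, adjusted p = 0.644), with replicate 1 as low as replicate 3. Tk1, thymidine kinase, and Dut, which breaks down dUTP, had changes of -0.43 and -0.35. Tyms, thymidylate synthase, was the only one of the 39 genes that read below the median of every array (4.04 to 5.03), where probe sets are dim.

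Of the genes that restore chromatin behind the fork, Chaf1b, a subunit of the histone chaperone CAF-1, read 6.42, 6.53 and 5.81 in the hypomorph, against 6.80, 6.84, 6.53 and 6.51 in wild type (log2 change -0.42, 95% interval -0.84 to 0.0049, adjusted p = 0.644). Uhrf1, which recruits the maintenance DNA methyltransferase, read 8.68, 8.99 and 8.27 in the hypomorph, against 8.85, 9.25, 8.86 and 8.93 in wild type (log2 change -0.33, 95% interval -0.74 to 0.09, adjusted p = 0.662). Replicate 3 was the lowest array and replicate 2 lay within the wild-type range for both.

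Further probe sets gave the same direction in most cases. Of the 39 genes, 24 had several probe sets, 35 further ones in all, and 32 of these 35 were lower and 3 higher in the hypomorph. Their median log2 change was -0.32, and the 3 that were higher belonged to Mcm3 (0.07), Pola2 (0.05) and Rfc1 (0.05). The chosen probe sets of Pold1, Fen1 and Rrm2 carry the manufacturer's suffix for possible cross-hybridization, and those of Mcm2, Mcm3 and Mcm7 the suffix for several transcripts. Probe sets without either suffix gave -0.42 for Mcm2, -0.40 for Mcm7, -0.20 for Pold1, -0.28 for Fen1, and -0.45 and -0.50 for Rrm2. For Mcm3 they gave -0.45, -0.16 and 0.07.

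Other genes of the replication machinery also had lower means in most cases. Of 50 further genes listed, 40 were measured, 33 had a lower mean and 7 a higher one, with a median log2 change of -0.26, and 14 were lower at an unadjusted p under 0.05 and 0 higher. The smallest p belonged to Rnaseh2c, a subunit of ribonuclease H2, which read 8.17, 8.54 and 8.31 in the hypomorph, against 8.85, 8.71, 8.73 and 8.68 in wild type (log2 change -0.40, 95% interval -0.63 to -0.18, adjusted p = 0.644). Asf1b, a histone chaperone, followed with 8.12, 8.46 and 8.01 in the hypomorph, against 8.57, 8.62, 8.56 and 8.58 in wild type (log2 change -0.39, 95% interval -0.64 to -0.14, adjusted p = 0.644). The groups did not overlap for either gene. Of the 40 genes, 5 had all hypomorph arrays below all wild-type arrays, against 2.72% of all genes. Cdc45, a part of the active helicase, had a change of -0.37 and Hells, a chromatin remodeller, -0.38. None of the 40 passed the adjusted threshold. The 7 with a higher mean had changes up to 0.16 (Tk2, the mitochondrial thymidine kinase).

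Genes that govern the entry into S phase were divided, with 16 of 24 measured genes lower and 8 higher and a median of -0.13. The smallest p belonged to Tfdp1, the dimer partner of E2F factors (-0.34), E2f8, a repressive E2F (-0.47), and Cdc25a, the phosphatase that activates Cdk2 (-0.33). For these 3 of the 24 genes, all hypomorph arrays read below all wild-type arrays, as for 2.72% of all genes. E2f8 read 8.56, 8.91 and 8.48 in the hypomorph, against 8.94, 9.46, 9.06 and 9.04 in wild type. Next came Cdkn1b, which encodes the kinase inhibitor p27, with 10.39, 10.24 and 10.19 in the hypomorph, against 9.99, 9.50, 10.24 and 9.76 in wild type (log2 change 0.40, 95% interval 0.01 to 0.79, adjusted p = 0.644). Cdkn1a, which encodes the inhibitor p21 and is named after its value was seen, had a change of 0.45 (adjusted p = 0.644). Of the 24 genes, 4 (16.7%) were lower and 2, Cdkn1b and Cdkn1a, higher at an unadjusted p under 0.05. The shares over all genes were 3.59% lower and 3.57% higher, and none of the 24 passed the adjusted threshold in limma. Mitosis genes, such as Aurkb (-0.41) and Kif20a (-0.37), were lower in 23 of 23 cases with a median of -0.30. Of them, 8 (34.8%) were lower at an unadjusted p under 0.05, against 3.59% of all genes. The mitosis genes shared part of the pattern described for the replication genes. In 23 of 23, hypomorph replicate 3 was the lowest of all 7 arrays, replicate 2 the highest hypomorph array and the SD larger in the hypomorph. However, hypomorph replicate 2 lay within the wild-type range for only 12 of the 23, against 64.2% of all genes. It read above all wild-type arrays for 8, against 15.5% of all genes. Wild-type replicate 2 was the highest of its group for 4 of the 23.

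Markers of red blood cell precursors shared part of the pattern of the replication genes. Of 19 erythroid markers, 15 were measured and 13 were lower, none at an unadjusted p under 0.05, with a median change of -0.77. Their medians on the hypomorph arrays were -0.82, 0.61 and -2.03, against 0.03, 0.39, -0.30 and -0.19 on the wild-type arrays, so hypomorph replicate 3 was again lowest and replicate 2 highest of its group, and wild-type replicate 2 highest in wild type. Summed over the markers on the linear scale, the level was 5611, 12638 and 2375 in the hypomorph, with a range of 7526 to 12584 in wild type. However, hypomorph replicate 2 read above all wild-type arrays for 10 of the 15 markers, against 3 of the 39 replication genes and 15.5% of all genes. That array lay within the wild-type range for 5 of the 15, against 33 of the 39 replication genes and 64.2% of all genes. Klf1, a master regulator of red cell genes, read 8.23, 9.68 and 6.92 in the hypomorph, against 9.20, 9.40, 8.75 and 8.93 in wild type. The anion exchanger Slc4a1 read 8.95, 10.77 and 5.39 in the hypomorph, against 10.04, 10.37, 9.50 and 9.43 in wild type. Hba-a1, an alpha globin, read 3.12 to 3.27 and lay below the lower quartile of every array. Probe sets naming several genes were not used, so whether this reading covers all alpha globin RNA is unknown here. The part of these cells in the difference of the replication genes was not tested.

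Other marker lists ran differently. Dendritic cell markers, 15 of 16 measured and 5 of them lower, had medians of 0.12, -0.09 and -0.05 in the hypomorph and -0.22, 0.04, 0.06 and 0.09 in wild type. Their sums were 10170 to 14136 in the hypomorph and 9622 to 11540 in wild type. T cell markers, 9 of 10 measured with 2 lower, had 0.06, 0.21 and -0.06 in the hypomorph and 0.52, -0.38, 0.10 and -0.25 in wild type, with sums of 3921 to 4754 in the hypomorph and 2961 to 5832 in wild type. Natural killer cell markers, 6 of 7 measured with 3 lower, had -0.03, 0.18 and -0.10 in the hypomorph and 0.34, -0.28, 0.08 and -0.04 in wild type. The T cell and natural killer cell lists shared the order of the hypomorph arrays within a narrower range, but wild-type replicate 2 was their lowest. Markers of granulocyte and monocyte progenitors, another dividing cell type, were lower in 5 of 5 measured genes of 7, but replicate 2 was the lowest hypomorph array. Their medians were -0.49, -0.90 and -0.23 in the hypomorph and -0.39, 0.28, -0.14 and 0.26 in wild type, with sums of 2116 to 3370 in the hypomorph and 3066 to 4881 in wild type. For the activation markers of lymphocytes, 5 of 5 measured and all higher, the medians were 0.60, 0.03 and 0.17 in the hypomorph and 0.31, -0.05, -0.03 and -0.28 in wild type, and the sums 5100 to 7152 in the hypomorph and 4245 to 5676 in wild type. Among further lists, basophil and mast cell markers were lower in 6 of 6 measured genes of 7 with medians of -0.95, -0.89 and -0.98 in the hypomorph and -0.08, -0.07, -0.49 and 0.46 in wild type, and sums of 438 to 463 in the hypomorph and 721 to 1548 in wild type. Neutrophil markers were lower in 8 of 8 measured genes of 10, with medians of -0.90, -0.51 and 0.06 in the hypomorph and -0.04, -0.05, 0.12 and -0.03 in wild type. Red pulp macrophage markers were higher in 10 of 10, with medians of 0.42, 0.16 and 0.31 in the hypomorph and -0.45, 0.21, -0.17 and 0.37 in wild type. Pancreatic acinar markers, 6 of 8 measured with 5 lower, had -2.58, -2.63 and -0.56 in the hypomorph and -1.94, -0.66, 0.92 and 1.74 in wild type. Medians of the plasmacytoid dendritic cell, megakaryocyte, monocyte, B cell and plasma cell lists had another order on the hypomorph arrays than the replication genes. Whether any of these cell types contributed to the replication transcripts was not tested.

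**Figure D4:**
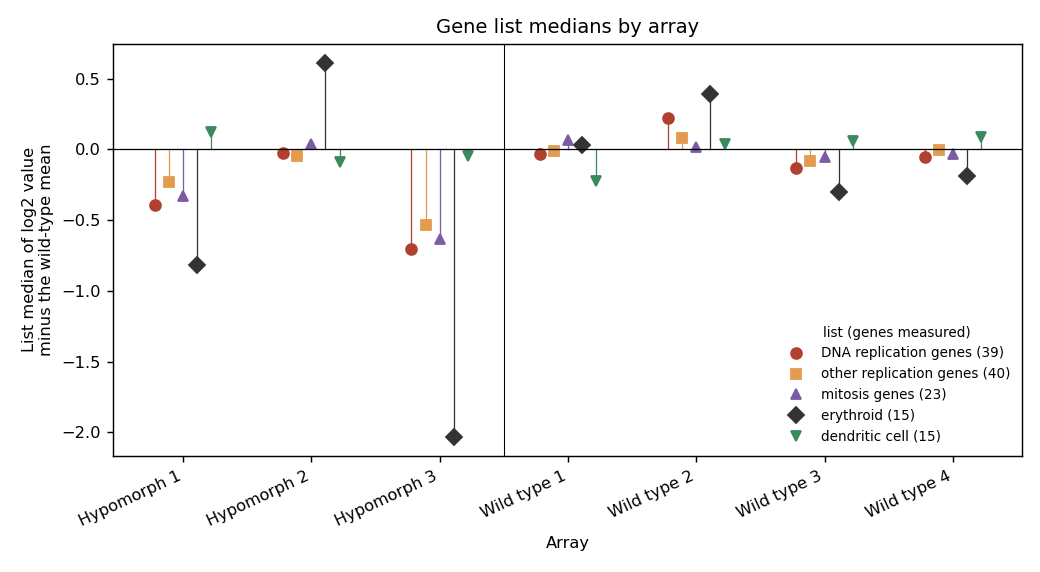
Median over each gene list of the log2 value minus the wild-type mean, by array, for the 39 replication genes, 40 other replication genes, 23 mitosis genes, 15 erythroid markers and 15 dendritic cell markers. The erythroid list has its lowest median (-2.03) on hypomorph replicate 3, where the replication genes also have theirs (-0.70), and the dendritic cell list stays between -0.22 and 0.12.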

How the data were processed

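Total RNA (100 ng per sample) of the sorted cells was hybridized to Affymetrix Mouse430A arrays, 1 per sample. The values deposited by the authors are log2 levels of probe sets. The submitters' processing notes name Affymetrix Power Tools, with version, background correction and normalization not given in the sources used here. Quartiles were similar on all arrays, as in values normalized between arrays, and such a step removes any global difference in RNA amount. The array number limits the precision.

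Of 22690 rows, 64 controls and 1 without a value were left out. Genes were named from the array annotation, updated by Entrez identifier through the RefSeq table of GRCm38.p6. Of 22625 probe sets, 20379 named 1 gene (20350 in that table), 691 several and 1555 none. Group means of the deposited values were compared by limma 3.58.1 (R 4.3.3, lmFit, then eBayes), unblocked, and p-values were Benjamini-Hochberg adjusted across 22625 probe sets. The fit was tested on simulated data for this comparison (5 runs, 22625 probe sets, 200 of them changed), which gave recoveries of 37.6% at a log2 change of 0.5 and 84% at 1. The changed probe sets were drawn at random, with noise independent between probe sets. The replication genes varied more (median hypomorph SD 0.359, against 0.125 over all genes) and moved together, so these recoveries do not hold for them. The members and lists were chosen with earlier results of these data known. In each role, up to 3 genes with the smallest unadjusted p got every array's value, and in the other lists up to 4 were named. Alternatives covered scaling, the model, the choice of probe set and single arrays. Orc1, Pola2, Pold2 and the markers named singly were chosen after their values were seen.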

Additional observations from a re-analysis of the deposited data

Results flagged for a closer look

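Of 46 results checked for a wild-type array far from the other 3, 3 were past the 95% critical value of Dixon's ratio, and chance flags about 1 in 20. Ccne2 read 8.08 on wild-type replicate 2, against 7.65 to 7.67 on the others (ratio 0.962). Pola2 read 7.33 on wild-type replicate 4 and 7.31 on the other 3, which shared 1 value (ratio 1.0), a gap of 0.02 on the log2 scale. The median of the dendritic cell markers was -0.22 on wild-type replicate 1, against 0.04 to 0.09 on the others (ratio 0.845).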

How the results depend on the processing

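A total of 15 alternative settings was tried. The count of probe sets past the adjusted threshold, 0 as reported, was 5 with each array centred on its median, 5 with trend and robust settings, 3 with array weights and 3 without dim probe sets (mean under 5). It ran from 0 to 2 with single arrays left out, and 0 replication genes passed in any setting (lowest adjusted p = 0.11, without hypomorph replicate 2). The 15 replication genes lower at an unadjusted p under 0.05 ran from 1 to 35 with single arrays left out and from 10 to 18 in the other settings without a block. The median change of all 39 replication genes, -0.37 as reported, ran from -0.55 to -0.19 with single arrays left out. Atg16l1 kept its direction, from -0.49 to -0.36, and its side of the threshold. Of 584 single-gene values, 2 reversed: Pola2, which ran from -0.28 to 0.012 with single arrays left out (positive without hypomorph replicate 3), and Rfc1 at 0.045 with the probe set of the largest SD. The cause was not tested. With the replicate block the count of replication genes lower at an unadjusted p under 0.05 was 31, and the median change -0.39. The share of all genes at that p was not taken in any alternative setting, so these counts have no background beside them. No label says whether the numbers pair the arrays, so pairing is unknown, and the main fit had no block. Deviations of same-numbered arrays correlated at 0.102, 0.0977 and 0.339, the last being the highest of all hypomorph and wild-type pairs. Hypomorph replicate 1 correlated best with wild-type replicate 2 (0.207), and hypomorph replicate 2 with wild-type replicate 1 (0.126).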

Other observations

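Outside the 39 genes, 390 genes on the array had an 8-letter E2F word in a promoter window. Of these, 239 (61.3%) had a lower mean in the hypomorph, with a median log2 change of -0.03, against 50.7% of the 9463 other genes without the word, whose median was -0.0021. On hypomorph replicates 1, 2 and 3 the medians of the 390 genes were -0.02, -0.0075 and -0.04 relative to the wild-type means. Those of the 12 measured replication genes with the word were -0.445, -0.073 and -0.718. The 22 measured replication genes without the word had similar medians of -0.360, -0.0285 and -0.703. Other replication genes and mitosis genes outside the 39 were not removed from the 390. The words were chosen with the results known, and no test was made.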
